A study of Mus musculus with 2 samples.

Results

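The cytosolic ribosomal protein genes encode the protein parts of the ribosome, the particle that translates messenger RNA. They were taken from the deposited count matrices by symbol: Rpsa, Rplp0, Rplp1, Rplp2 and every symbol that starts with Rps or Rpl followed by a digit, without the Rps6k kinases and without symbols that mark pseudogenes. The rule found 86 of 32285 gene rows. Of these, 31 encode proteins of the small subunit and 46 of the large subunit, and 9 are paralogs of another member or encode no ribosomal protein. No measured value enters this rule, but it was chosen with earlier results of these data known.

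A ribosome holds a small subunit, which reads the message, and a large subunit, which joins the amino acids. Messages of ribosomal proteins carry a run of pyrimidines at their 5′ end, the TOP motif, through which growth signals control their translation. Resting lymphocytes are known for a high share of such messages, and mature neutrophils for little RNA of any kind.

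The cells came from Hepa1-6 tumours, a mouse hepatoma line, grown in the liver of wild-type C57/BL6 mice. One group had received anti-PD-1, an antibody that blocks an inhibitory receptor of T cells, and the other an isotype antibody. Live CD45+ cells, which are leukocytes, were enriched on beads, sorted and made into 1 single-cell library per group, the treated (anti-PD-1) and the control (isotype) library. The sources used here give no dose, schedule, age or number of mice. With 1 library per group, the antibody and the library cannot be told apart, the antibodies could not be compared by a test, and all intervals are 95% intervals that cover counting error only.

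In the order treated, control, which holds for each pair of values unless stated, the libraries held 10149 and 9683 cell barcodes with 72148493 and 67520433 unique molecular identifiers (UMIs, each a counted RNA molecule). After filtering, 9711 and 9278 cells remained, with medians of 6303 and 6124 UMIs. Cells were assigned to 14 types by lists of 8 marker genes that hold no ribosomal protein gene, and 84.6% and 83.0% of kept cells passed this gate. In T cells, NK cells, B cells, neutrophils and monocytes or macrophages, markers of the same type were among the 10 leading genes in both libraries. Examples are Cd3d, Cd3e and Cd3g in T cells and S100a8, S100a9 and Retnlg in neutrophils. The gate itself used these markers, so their lead is no separate evidence of identity. Among the leading genes of B cells, 1 (Ly6d) is on the plasmacytoid dendritic cell list. Of the gated cells, 1326 and 1199 held exactly 3 markers of their type and 1061 and 941 led by a single marker. The libraries shared 140 barcodes.

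The 30 bases around the annotated start of a few members are shown because the TOP motif would stand there. The sequences are those of some, not all, of the members other than paralogs that differed most, or least, between T cells and neutrophils. Rps27rt, the copy of Rps27, is added. Each runs 5′ to 3′ from 10 bases before the first base of the gene, as RefSeq gives it on GRCm38.p6. Capitals mark the longest run of C and T that touches the 5 bases on either side of that start. Of equally long runs, only the first is marked.
Rps15a (chr7:118116128-118116157, minus strand): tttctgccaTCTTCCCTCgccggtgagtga
Rpl12 (chr2:32961702-32961731, plus strand): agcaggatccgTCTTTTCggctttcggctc
Rps18 (chr17:33955646-33955675, minus strand): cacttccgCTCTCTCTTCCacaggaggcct
Rps9 (chr7:3704031-3704060, plus strand): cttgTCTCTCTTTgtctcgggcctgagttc
Rps27 (chr3:90213629-90213658, minus strand): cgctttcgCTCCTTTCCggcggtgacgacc
Rps27rt (chr9:114982720-114982749, minus strand): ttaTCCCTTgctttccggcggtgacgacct
Of the 6 members with the largest ratios, those shown (Rps15a, Rpl12, Rps18) had runs of 9, 7 and 11 bases. Not shown are Rpsa, with a run of 3 bases, and Rpl4, with 14. Of the 6 with the smallest, paralogs and non-ribosomal proteins left aside, those shown (Rps9, Rps27) had runs of 9 and 9. Not shown are Rps25, with a run of 4 bases, and Rpl10, with 1. For Rpl3, Rps27a and Rps29 no run is given. The marked run of Rps27rt ends before the annotated start and that of Rpl12 begins just after it, while the others shown span it. In Rps27rt a further run of 6 bases, as long as the marked one, begins with C at the annotated first base. Rps27 and its copy Rps27rt shared 19 of these bases in 1 stretch. Of the 86 members, 66 matched the RefSeq promoter table, and 35 of them (53.0%) had a run of at least 5 bases, against 32.9% of all 27025 genes of the table. The first base was C, as in the TOP motif, in 22 of the 66 (33.3%) and in 16.2% of all genes, so a run near the start is not shown to be that motif. In the 300 bases from 250 before to 50 after the start, CGGAAG, the core read by ETS-family factors, occurred on either strand in 66.7% of matched members and 17.2% of all genes. TATAAA, the TATA box, occurred on either strand in 9.09% of members and 14.2% of all genes. These matches describe letters, not binding.

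Ribosomal protein genes took the largest share of UMIs in B cells and the smallest in neutrophils. In B cells the pooled share was 29.0% in the treated library (41 cells) and 31.6% in the control library (45 cells). NK cells stood at 23.4% and 26.1% (65 and 72 cells). T cells stood at 22.1% (interval 22.1% to 22.2%, 571 cells) and 24.2% (24.2% to 24.3%, 481 cells). The order of B, NK and T cells was the same in both libraries, but the ranges of single cells overlapped widely.

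Myeloid cells other than neutrophils lay in between. Monocytes or macrophages had 17.5% and 19.98% (3978 and 3452 cells), non-classical monocytes 16.5% and 18.7%, and plasmacytoid dendritic cells 17.1% and 19.6%. The dendritic cell classes cDC1 and cDC2, which present antigen, had 18.3% and 17.9% in the treated library and 20.8% and 20.4% in the control library. Migratory dendritic cells, marked by Ccr7, had 15.7% and 17.1%. Neighbours in this myeloid order differed by less than the spread of their own cells.

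Neutrophils had a pooled share of 5.90% (5.88% to 5.92%, 2445 cells) and 6.76% (6.74% to 6.78%, 2575 cells). Their median cell was far lower, at 2.89% and 3.29%, while the median T cell stood at 21.6% and 23.6%. The middle 50% of neutrophils ran from 2.06% to 4.14% and from 2.35% to 4.75%, and that of T cells from 18.5% to 25.1% and from 20.4% to 27.8%. A share above the lowest 5% of T cells was found in 76 neutrophils (3.11%) and 102 neutrophils (3.96%).

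**Figure D1:**
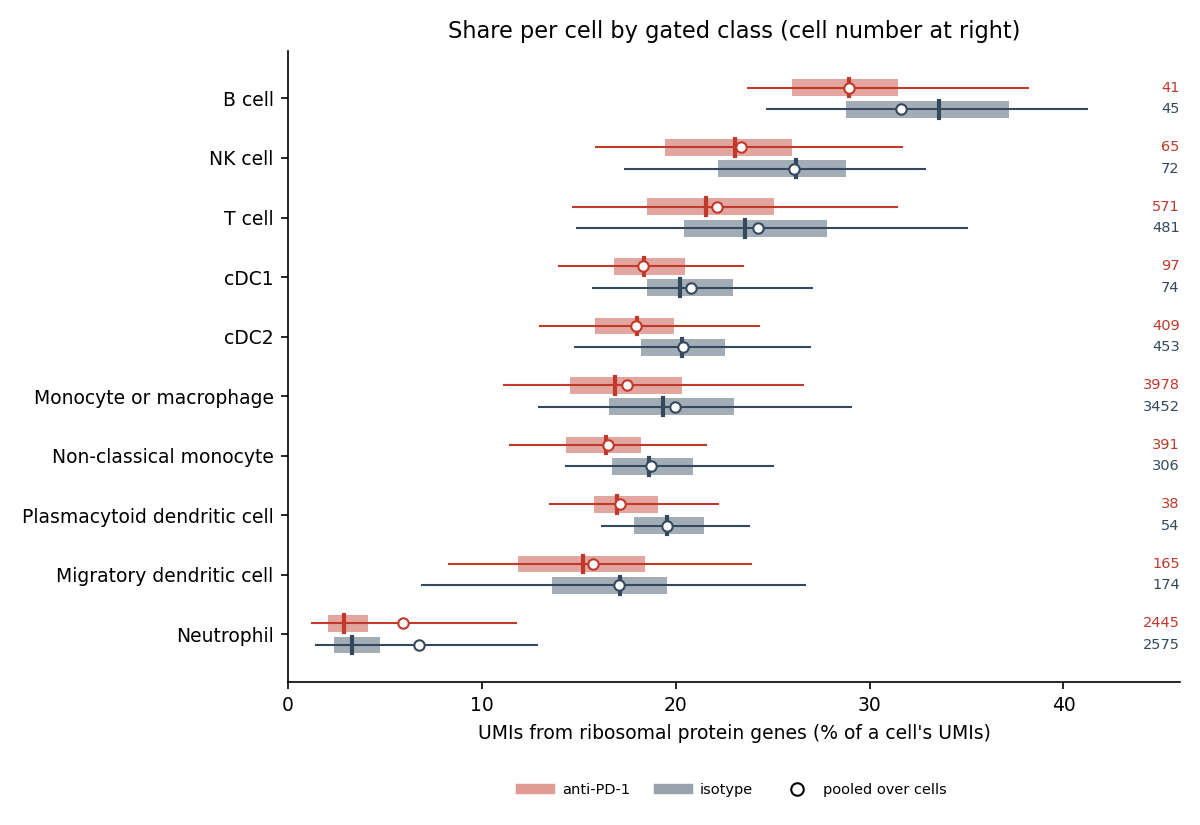
Share of each cell's UMIs from the 86 ribosomal protein genes (x axis, %) by gated class and library. Boxes span the quartiles with the median as a line, whiskers the 5th to 95th percentiles, open circles the pooled share, and numbers at the right are cells; B cells lie highest and neutrophils lowest, and the pooled neutrophil circle lies well right of its median.

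The pooled share of T cells was 3.75-fold that of neutrophils in the treated library (log2 ratio 1.91, interval 1.90 to 1.91) and 3.58-fold in the control library (1.84, 1.84 to 1.85). The ratio of UMI numbers was larger. A median T cell held 1724 and 1469 member UMIs and a median neutrophil 58 and 62, which is 29.7-fold and 23.7-fold, whereas UMIs of all other genes differed 2.99-fold and 2.56-fold. Fewer RNA molecules per cell and lower capture from neutrophils cannot be told apart here.

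A few neutrophils held most of the members' UMIs. Cells with a share above 10% made up 143 of 2445 (5.85%) and 168 of 2575 (6.52%) neutrophils but held 56.1% and 59.9% of the class's ribosomal protein UMIs. These cells had medians of 8543 and 7568.5 UMIs, against 2028 and 1876 in the other neutrophils. A UMI of at least 1 of the 8 monocyte or macrophage markers was present in 86.7% and 76.2% of them and in 19.1% and 18.1% of the others. Over all neutrophils, all 8 of these markers had UMIs, at a sum of 652 and 741 CPM (UMIs scaled to the same total in every class), and over T cells 8 and 7 had, at 560 and 449 CPM. Without the neutrophils and T cells that held such a marker, which left 1881 and 2011 neutrophils, the pooled neutrophil share was 3.14% and 3.94% and the T cell to neutrophil ratio 7.13-fold and 6.09-fold.

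At matched depth the difference remained, but it was smaller among cells with at least 5000 UMIs. Among cells with 2000 to 5000 UMIs, the median share was 21.5% and 23.5% in T cells (109 and 159 cells), 19.2% and 21.4% in monocytes or macrophages (608 and 424 cells), and 2.49% and 2.69% in neutrophils (1115 and 986 cells). The T cell quartiles at this depth began at 18.3% and 20.002%, and those of neutrophils ended at 3.30% and 3.55%. From 5000 to 10000 UMIs the median was 9.06% and 5.46% in neutrophils (107 and 93 cells) and 21.7% and 23.5% in T cells. Among neutrophils with 10000 to 20000 UMIs the median was 12.5% and 13.2%, in 70 and 81 cells. T cells of that depth had 20.8% and 22.6% (155 and 84 cells). Within T cells the share followed depth hardly at all (Spearman's rho across cells 0.01 and 0.03, cells of 1 library being no replicates). In NK cells rho was 0.25 and 0.37 (65 and 72 cells), in neutrophils -0.05 and -0.14, and in monocytes or macrophages -0.10 and -0.02. The neutrophil rho does not show that their share depended on depth in both directions. Their median fell from 3.52% and 4.16% at 500 to 1000 UMIs to the values given at 2000 to 5000, and rose above that depth.

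**Figure D2:**
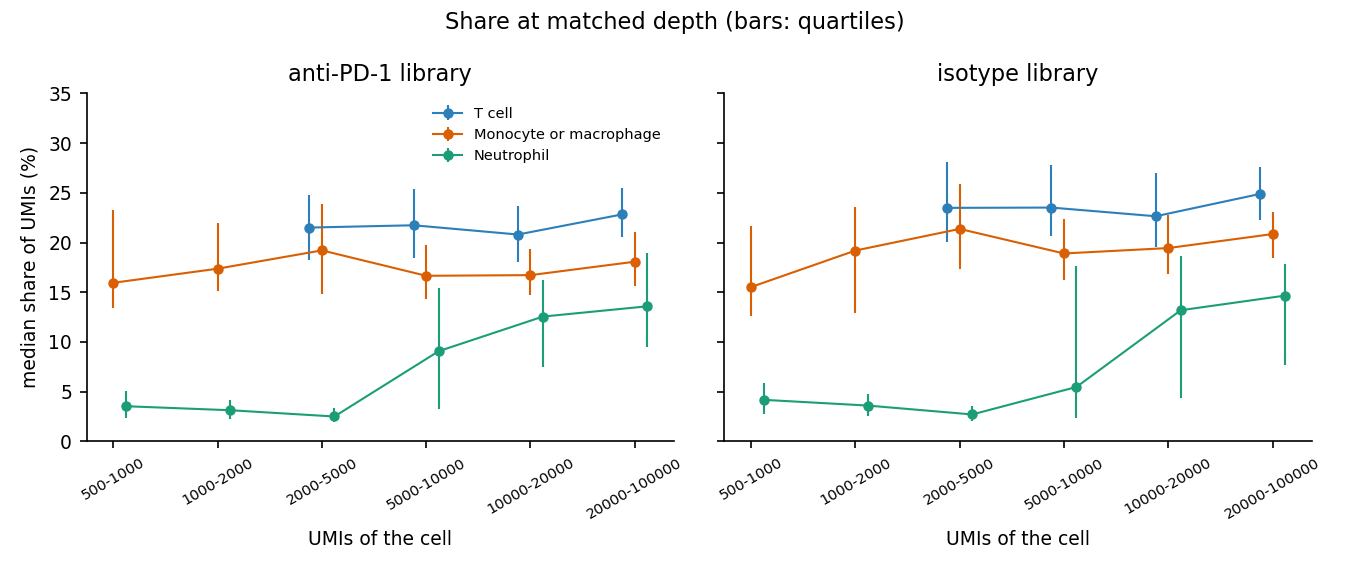
Median share of UMIs from ribosomal protein genes (y axis, %) in cells binned by total UMIs (x axis), per library, with bars for the quartiles and only bins of at least 10 cells. T cells and monocytes or macrophages stay high at every depth, and neutrophils stay under 5% up to 5000 UMIs.

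Within T cells, cells that express naive-state genes had the larger share. With at least 2 of 6 such genes and no cycling, the pooled share was 23.9% and 27.7% (140 and 131 cells), against 21.8% and 23.3% without them (281 and 277 cells). Foxp3 T cells, the regulatory type, had 19.9% and 19.8%, the lowest of the T cell groups. CD8 T cells had 22.5% (188 cells) and 27.4% (67 cells), and CD4 T cells without Foxp3 had 22.3% and 23.6%. Cycling T cells had 21.7% and 22.7% at a median of 17823 and 13730 UMIs. These groups were defined after the files had been seen, and those by receptor overlap with those by state.

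Within neutrophils, cycling immature cells had the highest median share, at 11.3% and 8.93% of UMIs, in only 15 and 28 cells. Immature neutrophils that did not cycle, defined by at least 2 of 5 granule genes, had medians of 4.23% and 3.13%. Cells with Retnlg, a gene of circulating neutrophils, had 2.76% and 3.06%, and cells without it but with Ccl3, a chemokine gene, had 3.11% and 3.55%. The non-cycling groups differed by less than their quartile ranges. Among macrophages, cells with all of C1qa, C1qb and C1qc had 19.7% and 22.2% pooled, above the 15.9% and 17.7% of Ly6c2 monocytes without C1q in both libraries.

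**Figure D3:**
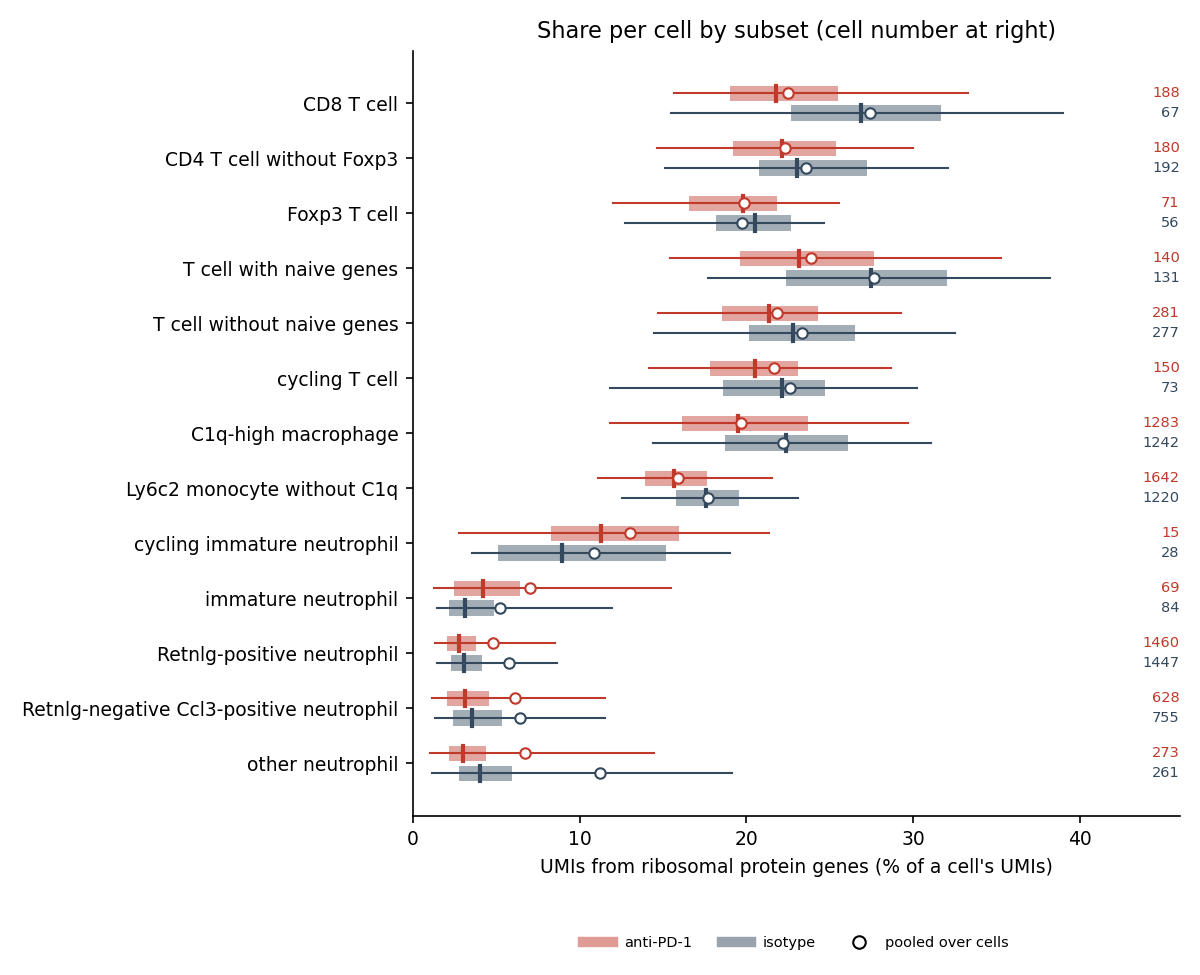
Share of each cell's UMIs from ribosomal protein genes (x axis, %) in subsets of T cells, monocytes or macrophages and neutrophils, per library, drawn as in the plot by class. T cells with naive genes lie right of those without in both libraries, and cycling immature cells have the highest median among neutrophils.

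Nearly every member was higher in T cells than in neutrophils, but not equally. Of 86 members, 84 had at least 50 UMIs over both classes. At least 2-fold higher CPM in T cells was found for 80 of 84 in the treated library, where 52.3% of all 9323 genes passed the same fold, and for 78 of 84 in the control library, where 49.4% of 8709 genes did. The members' median log2 ratio was 2.03 and 1.92, and that of all genes 1.09 and 0.98. Relative to the median gene, 33 and 34 members were at least 2-fold higher, and the members' median was 0.94 and 0.94. The share of all genes that pass this scaled fold was not computed. Without the scaling, the upper quartile of all genes was 2.19 and 1.91, near the members' median. The direction is therefore shared with most genes, and the members' median lies above the median of all genes in both libraries.

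The largest ratios belonged to proteins of both subunits. Rpl3, which lies near the peptide-forming centre of the large subunit, had 2645 CPM in T cells and 366 in neutrophils of the treated library and 2565 and 432 in the control library (log2 ratio 2.85, interval 2.79 to 2.91, and 2.57, 2.51 to 2.63). Rps15a, of the small subunit, had 4505 and 688 CPM, and 5543 and 857 CPM (2.71 and 2.69). Rpl12, part of the stalk base, had 1468 and 228 CPM, and 1515 and 262 CPM (2.69 and 2.53). All 3 were higher in T cells in both libraries, with intervals far from 0. Rpsa (2.67 and 2.42), also known as a laminin receptor precursor, Rpl4 (2.65 and 2.27) and Rps18 (2.59 and 2.34) completed the highest 6.

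Rps9, of the small subunit (chr7:3703993-3706897 in GENCODE vM21), stood out at the other end. It had 3310 CPM in T cells and 2697 in neutrophils of the treated library, and 3527 and 2670 CPM in the control library. The log2 ratios were 0.30 (0.27 to 0.32) and 0.40 (0.37 to 0.43), near equality. Without cells that held a monocyte or macrophage marker, Rps9 kept 2474 and 2486 CPM in neutrophils and made up 7.88% and 6.31% of their ribosomal protein UMIs, against 1.49% and 1.45% in T cells. Rpl3 then had 83.8 and 139 CPM in neutrophils, for a log2 ratio of 5.06 and 4.19.

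Rps27, a small-subunit protein with a zinc finger, had the next lowest mean ratio when the paralogs are left aside. It had 1662 CPM in T cells and 1112 in neutrophils of the treated library, and 2800 and 1396 CPM in the control library (log2 0.58 and 1.00). Without marker-bearing cells its log2 ratio was 0.43 and 0.86, while that of Rps27a was 1.66 and 1.56. Of the members other than paralogs and non-ribosomal proteins, Rps27a, made as a fusion with ubiquitin, followed at 1.07 and 1.06. Next came Rps25 at 1.245 and 0.97, Rpl10 at 1.16 and 1.15 and Rps29 at 1.24 and 1.253. Of the ribosomal proteins named otherwise, Fau, also a fusion with a ubiquitin-like protein, had 5072 CPM in T cells and 5580 in neutrophils, and 6352 and 5897 CPM (log2 -0.14 and 0.11), so its direction differed between the libraries. Rack1, a scaffold protein on the small subunit, was higher in T cells (2.45 and 2.16).

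**Figure D4:**
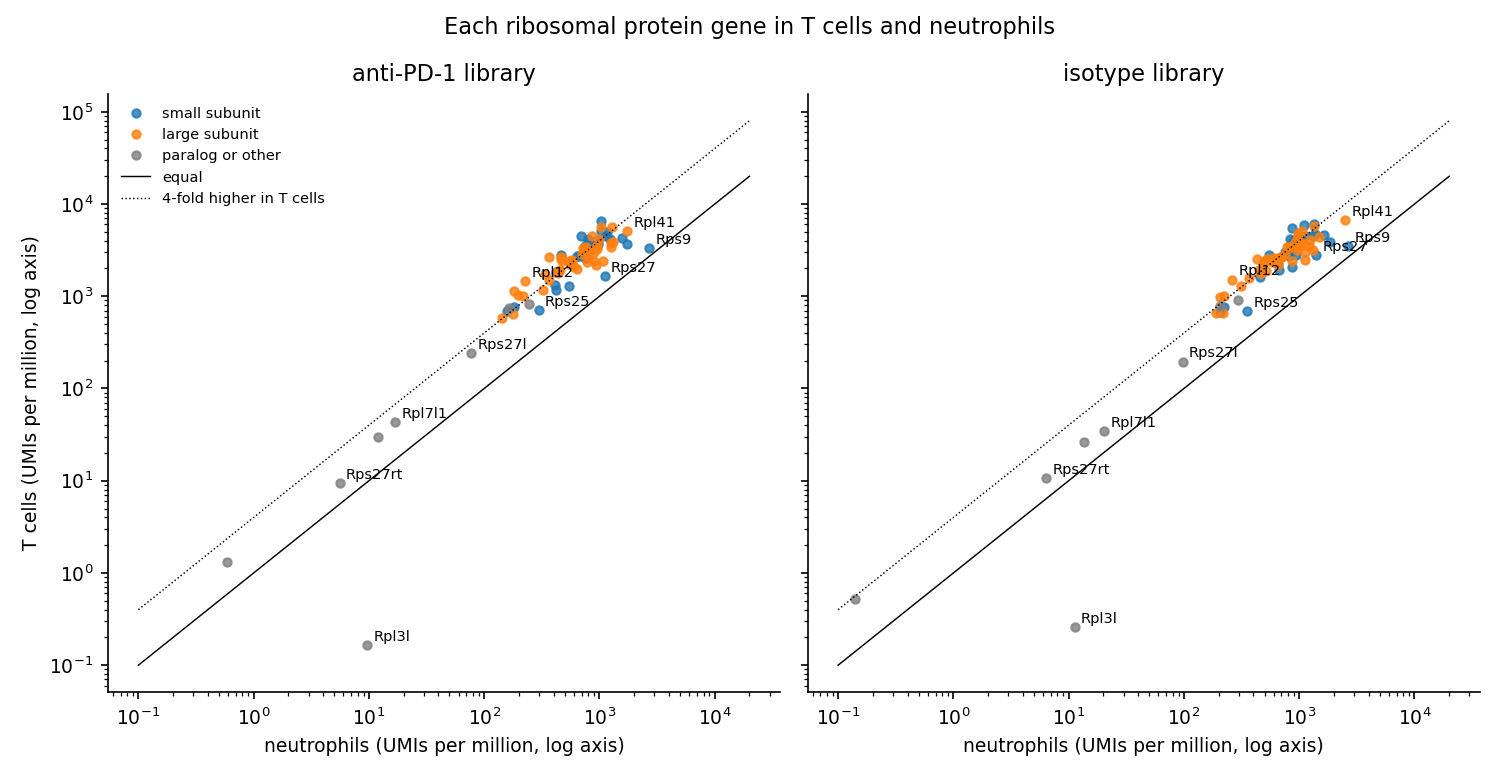
CPM in T cells (y axis) against neutrophils (x axis), both on log axes, for each member with a UMI in both classes, per library. Solid line, equal; dotted line, 4-fold higher in T cells; Rps9 lies nearest to equality among the abundant members, and Rpl3l lies far below it.

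The balance of the subunits moved little between classes. UMIs of the 31 small-subunit genes over those of the 46 large-subunit genes gave 0.81 and 0.80 in T cells, 0.87 and 0.86 in B cells, 0.82 and 0.81 in monocytes or macrophages and 0.85 and 0.84 in neutrophils. Among the members with the highest mean CPM over the 8 classes with at least 50 cells in both libraries were Rpl41 (4595), Rpl13 (4506), Rps24 (4295) and Rpsa (4219). These CPM levels come from a 3′ assay, in which 1 molecule counts once whatever its length.

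Rpl36al and Rpl22l1 were the most abundant paralogs in T cells. Rpl22l1 had 744 and 781 CPM in T cells and 166 and 205 in neutrophils, and Rpl36al had 829 and 913 in T cells, 246 and 294 in neutrophils, and 1094 and 1210 in monocytes or macrophages. Its counterpart Rpl36a had 1005 and 1297 CPM in T cells but 785 and 1109 in monocytes or macrophages, below Rpl36al, while Rpl22 stood above Rpl22l1 in T cells at 1518 and 1935. Rps27l, a target of p53, was highest in monocytes or macrophages (313 and 369 CPM), next in T cells (244 and 196) and lowest in neutrophils (77.4 and 97.3) of these 3 classes. Rps27rt had 9.40 and 10.6 CPM in T cells and 5.59 and 6.42 in neutrophils (log2 0.75 and 0.73), and its near-identity with Rps27 makes its counts uncertain. Rpl7l1 and Rps19bp1, which act in ribosome assembly and as a binding partner of Rps19, were low: Rpl7l1 had 43.7 and 34.5 CPM in T cells (log2 ratio to neutrophils 1.37 and 0.76), and Rps19bp1 had 34.9 and 37.7 CPM in monocytes or macrophages (T cells to neutrophils 1.33 and 0.94). Rpl39l had 8 and 2 UMIs in T cells and 4 and 1 in neutrophils, too few for a ratio. Rpl10l, a gene of the testis, had 0 UMIs in all 5 classes examined, which in monocytes or macrophages allows up to 0.0881 and 0.0945 CPM.

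Rpl3l, the striated-muscle form of Rpl3, was the only measured member lower in T cells, in both libraries. It had 66 and 81 UMIs in neutrophils (9.71 and 11.3 CPM), 3.58 and 5.86 CPM in monocytes or macrophages, and 1 and 1 UMI in T cells (log2 ratio -5.88, interval -11.20 to -3.35, and -5.45). After thinning each cell to 1000 UMIs, 0.850% and 1.15% of neutrophils had a UMI, and 0 of 570 and 0 of 479 T cells had, which allows up to 0.645% and 0.767%. On chromosome 17, Msrb1 starts 499 bases beyond the end of Rpl3l on the same strand. Msrb1 had 2019 and 1837 CPM in neutrophils, 803 and 715 in monocytes or macrophages and 84.9 and 71.0 in T cells, the same order, and its part in the Rpl3l counts was not tested.

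Among other genes of translation, most elongation factors and biogenesis genes were higher in T cells by at least 2-fold, a fold that 52.3% and 49.4% of all genes passed. Of 16 elongation factors and related TOP genes, 14 and 15 were at least 2-fold higher (median log2 2.23 and 2.09), among them Eef1a1, which delivers aminoacyl-tRNA (2.41 and 2.30), and Eef2, which moves the ribosome along (2.48 and 2.41). Of 17 initiation factors on a list of their own, 11 and 10 were (median 1.35 and 1.10), near the share and the median (1.09 and 0.98) of all genes. The initiation factors Eif3e, Eif3f, Eif3h, Eif4b and Eif4a2 were counted among the 16 TOP genes instead. Their log2 ratios ran from 0.26 (Eif4a2) to 2.61 (Eif3e) in the treated library and from 0.45 to 2.56 in the control library. The lists were not tested against each other. Ribosome biogenesis genes passed in 25 of 25 and 23 of 24 (median 2.26 and 2.04), such as the nucleolar genes Npm1 (3.19 and 2.64) and Fbl (2.54 and 1.89). Mitochondrial ribosomal protein genes passed in 73 of 77 and 65 of 74 (2.21 and 1.71). Myc, which drives ribosome production, had 125 and 138 CPM in T cells and 8.82 and 9.35 in neutrophils (3.83 and 3.89). The list of growth control genes that holds Myc passed in only 8 of 14 and 6 of 12. Its median of 1.17 and 1.03 was near that of all genes, and Eif4ebp1 on it was lower in T cells (-1.56 and -1.65).

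Between the antibodies, the share of ribosomal protein UMIs was lower in the treated library in all 8 classes with at least 50 cells in both libraries, with log2 ratios from -0.20 to -0.12. The neutrophil subsets did not all share this direction. In T cells the ratio was -0.13 (interval -0.133 to -0.126), in neutrophils -0.20 (-0.202 to -0.190) and in monocytes or macrophages -0.19 (-0.196 to -0.193). Among T cell groups it was -0.28 in CD8 T cells, -0.21 in T cells with naive genes, -0.08 in CD4 T cells without Foxp3 and 0.01 in Foxp3 T cells, whose interval of -0.004 to 0.020 holds 0. Immature neutrophils that did not cycle were higher in the treated library at 0.42 (69 and 84 cells), and cycling immature ones at 0.26 (15 and 28 cells). Retnlg-positive neutrophils stood at -0.27, those with Ccl3 but no Retnlg at -0.07, and neutrophils in none of these groups at -0.74 (273 and 261 cells). Cycling cells were 150 of 571 T cells in the treated library and 73 of 481 in the control library, and their part in the T cell value was not tested.

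By gene, 14 of 83 measured members were lower in treated T cells by at least 0.32 on the log2 scale, the threshold used between libraries, and 1 was higher by as much, where 10.5% of 9032 genes were lower and 21.2% higher. In neutrophils 21 of 84 were lower and 0 higher, against 10.6% and 14.4% of 7904 genes. In monocytes or macrophages 20 of 84 were lower and 0 higher, against 5.33% and 9.26% of 10830 genes. The median member stood at -0.08, -0.19 and -0.15, and the median of all genes at 0.08, 0.05 and 0.07. With all values taken relative to the median gene, the pooled log2 ratios were -0.21, -0.25 and -0.26.

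Most of the largest decreases were found in short members. Of the 81 measured in all 8 classes, 11 were lower by this threshold in every class and 0 higher, where 0.591% of 2708 genes, members included, were lower and 0.258% higher in every class. The 11 were Rps28, Rpl38, Rps21, Rps29, Rpl37a, Rpl39, Rpl37, Rpl41, Rps27, Rpl36 and Rpl36a, with coding sequences of 75 to 318 bases. Rps21 had 1335 CPM in treated and 2265 in control T cells (log2 -0.76, -0.81 to -0.72), 412 and 659 in neutrophils (-0.68) and 1095 and 1770 in monocytes or macrophages (-0.69). Rps28 stood at -0.71, -0.67 and -0.72 in the same classes, and Rpl38 at -0.69, -0.67 and -0.72. The ratios of Rps21, Rps28 and Rpl38 lay close together in these 3 classes, whereas Rps27 ranged from -0.75 to -0.33 over the 8.

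Longer members moved less than short ones. From 360 to 450 bases the median was -0.13 in T cells, -0.25 in neutrophils and -0.22 in monocytes or macrophages. From 450 to 600 bases it was -0.08, -0.07 and -0.08. The 4 members from 900 bases on had a median of -0.19 in neutrophils. In T cells, Rps2 (log2 0.18) and Rpl4 (0.21) were higher in the treated library, while in neutrophils Rps2 was at -0.12 and Rpl4 at -0.16. The paralog Rps27l, with a coding sequence of 315 bases, was an exception among the short members at 0.317 in T cells, just under the threshold, and stood at -0.33 in neutrophils. The member past the threshold in the higher direction in T cells was Rpl7l1 (0.34, interval 0.04 to 0.65). Among the highest in neutrophils were Rpl9 (0.05) and Rps9 (0.01), and in monocytes or macrophages Rpl19 (0.04) and Rplp0 (0.03), all near equality.

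Over the members, the log2 ratio between libraries followed coding length in each of the 8 classes, with Spearman's rho from 0.74 to 0.85 across genes, which are not independent replicates and share both libraries. This relation was noticed in these data and is described on the same data. The principal transcript's length, the first choice, was dropped because members lacked it. Coding length was then taken from all basic transcripts, which gave rho from 0.71 to 0.84. After that relation had been seen, it was taken from CCDS transcripts, because Rpl41 had a wrong length, and the lengths of 6 members changed. Under 270 bases the median member stood at -0.68 in T cells, -0.62 in neutrophils and -0.63 in monocytes or macrophages, and from 600 to 900 bases at 0.06, -0.09 and -0.06. Genes outside the family with a coding sequence under 270 bases had medians of -0.01, -0.14 and -0.05 in these 3 classes. Those from 900 bases on had 0.08, 0.08 and 0.08. In NK cells the medians were -0.18 and 0.09, and in cDC1 -0.15 and 0.14. In each of the 8 classes the median of the short ones was the lower, by less than among the members. Over all other genes rho ran from -0.08 to 0.15.

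Split at 360 bases, a limit set after the ratios had been seen, the 22 shorter members took 4.33% of T cell UMIs in the treated library and 5.81% in the control library (log2 -0.42). The 64 longer members took 17.8% and 18.4% (-0.05). In neutrophils the values were -0.45 and -0.11, and in monocytes or macrophages -0.46 and -0.11. The shorter members thus differed more between the libraries than the longer ones in all 3 classes. The part of transcript length, of library construction and of the antibody was not tested.

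**Figure D5:**
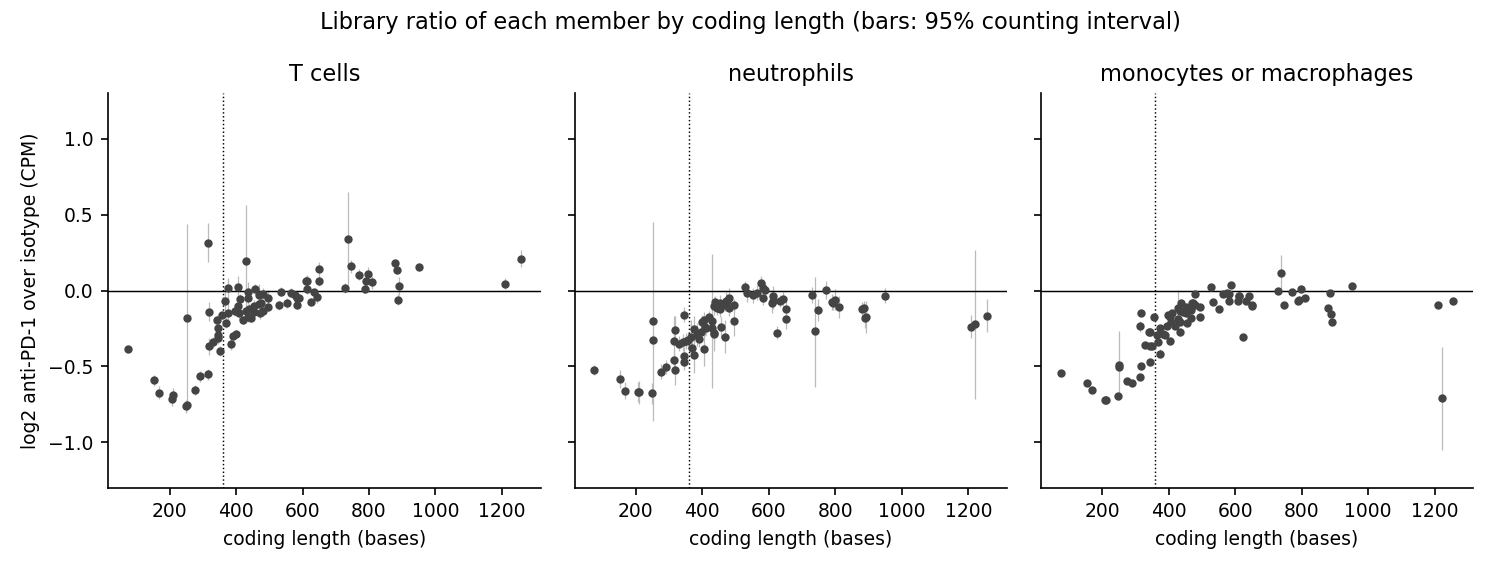
Log2 ratio of CPM, anti-PD-1 over isotype (y axis), of each member with at least 50 UMIs against its coding length in bases (x axis) in 3 classes, with 95% counting intervals as bars and a dotted line at 360 bases. Members under 270 bases have medians of -0.68, -0.62 and -0.63, those from 270 to 360 bases -0.31, -0.35 and -0.36, and those from 600 to 900 bases 0.06, -0.09 and -0.06; Rps27l lies above the other short members in T cells, and Rpl3l at -0.71 below the other long ones in monocytes or macrophages.

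Genes of ribosome production went the other way from the ribosomal proteins in T cells. Of 25 biogenesis genes, 16 were higher in treated T cells by at least 0.32 on the log2 scale (median log2 0.43) and 0 lower, and of 78 mitochondrial ribosomal protein genes 31 were higher and 0 lower (0.29). Over all genes 21.2% were higher and 10.5% lower, with a median of 0.08. In neutrophils the medians were 0.04 and -0.06, and in monocytes or macrophages -0.02 and 0.02. Ncl, a nucleolar protein, had 541 and 434 CPM in T cells (0.32), and Fbl had 179 and 131 (0.45). The larger number of cycling T cells in the treated library, given above, moved with these values, and its part was not tested.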

How the data were processed

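The authors deposited unnormalized UMI counts for every gene and barcode. Per the file headers they come from Cell Ranger 5.0.1; version 2.1.1 and build mm10 stand in the submitters' processing notes. Cells were kept with at least 500 UMIs, 200 genes and at most 10% mitochondrial UMIs, and 303 and 288 with a scrublet score (scanpy 1.11.5) above 0.25 were removed, since the automatic threshold marked 1 barcode in each library. A cell took the type with most markers detected, at least 3 and more than any other. UMIs were summed per type and scaled to CPM. Shares carry exact Clopper-Pearson and ratios exact conditional binomial 95% intervals (Python 3.11.15, scipy 1.17.1). Only the ratio intervals were checked, on simulated counts that held counting error and no spread between cells. Floors are 3 counts. Named members were the 9 paralogs or other proteins, the 6 highest and 6 lowest between T cells and neutrophils, the 3 highest and 3 lowest between libraries in each of 3 classes, the 5 most abundant, and genes of the lists; others are named only in counts. Members and lists were chosen with earlier results of these data known. The doublet limit, the subsets, the coding lengths with their 360-base limit and bins, and the alternatives marked as added were chosen after values had been seen. Coding lengths and positions come from GENCODE vM21; a first choice, the principal transcript's length, was dropped because members lacked it. Some genes that this rule names are not reported here.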

Additional observations from a re-analysis of the deposited data

How the results depend on the processing

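No paired analysis was possible because the groups share fewer than 2 replicate numbers. No alternative turned the direction of a ratio, and a count has no direction to turn. Of 73 values recomputed, ratios and counts together, 33 stayed within the main counting interval (counts within 1.5 times) and 40 moved. All values below are log2 ratios unless called counts, and the cause of each shift was not tested.

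For T cells over neutrophils (1.91 treated, 1.84 control), the ratio was 1.57 and 1.57 with no doublet removal, 2.12 and 2.11 with a gate of 2 more markers than any other type, 2.85 and 2.87 in cells with 2000 to 5000 UMIs, 2.51 and 2.47 as a mean over cells, and 1.91 and 1.85 without mitochondrial UMIs. Among alternatives added after the data were seen, it was 2.83 and 2.61 without cells holding a monocyte or macrophage marker, and 1.60 and 1.49 with the 20 most abundant other genes of each class taken out of the total. The counts of members at least 2-fold higher were 33 and 34 under median-of-ratios scaling, against 80 and 78. Under that scaling no share over all genes was computed.

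For treated over control (T cells -0.13, neutrophils -0.20, monocytes or macrophages -0.19, in this order), the ratios were -0.15, -0.15 and -0.19 with no doublet removal, -0.12, -0.13 and -0.19 with the stricter gate, -0.11, -0.0848 and -0.16 in cells with 2000 to 5000 UMIs, and -0.21, -0.25 and -0.26 under median-of-ratios scaling. As a mean over cells, neutrophils had -0.17 and monocytes or macrophages -0.18. Of the added alternatives, leaving out marker-bearing cells gave -0.10 in T cells and -0.33 in neutrophils, leaving out shared barcodes gave -0.20 in neutrophils and -0.20 in monocytes or macrophages, and leaving out members under 360 bases gave -0.0484, -0.11 and -0.11 under either definition of coding length. The low depth of neutrophils, 58 and 62 member UMIs in a median cell, limits values of single cells.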
